A study of Homo sapiens with 8 samples.

Results

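The 38 genes described here encode proteins of DNA mismatch repair, base excision repair, nucleotide excision repair and DNA end joining. They were taken by symbol from the 26475 rows of the deposited expression table, and every one of the 38 was found. The set holds 5 mismatch repair genes, 15 base excision repair genes, 9 nucleotide excision repair genes and 9 end-joining genes. The cells were C4-2B, an established line of castration-resistant prostate cancer that descends from LNCaP cells, and expression was measured by RNA sequencing of total RNA after 7 days of treatment. Combination cells received ENZ and EPZ6438 together, with no separate doses given in the labels. EPZ cells received 1 uM EPZ6438, an inhibitor of the histone methyltransferase EZH2 also called tazemetostat, and ENZ cells received 10 uM ENZ, the usual abbreviation of the antiandrogen enzalutamide. DMSO cells received the solvent. Each of the 4 groups had 2 libraries, all groups came from the same cell line and no genetic change was described. Whether the libraries of a group are separate cultures is not stated in the labels, and the p-values therefore reflect the variation among these 8 samples alone, possibly only technical.

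Mismatch repair removes bases misincorporated during replication: MutS complexes recognise the mismatch and MutL complexes direct the excision. In base excision repair a glycosylase cuts out a damaged base, APEX1 nicks the strand, and a polymerase and a ligase refill it with the help of XRCC1 and the poly(ADP-ribose) polymerases PARP1 and PARP2. Nucleotide excision repair unwinds and cuts out a longer stretch around a bulky lesion, such as one made by ultraviolet light. Non-homologous end joining holds and ligates the ends of a broken chromosome through the Ku complex, DNA-PK and LIG4, while POLQ drives a separate, microhomology-mediated joining.

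Values are FPKM, fragments scaled to gene length and library size, as the authors deposited them. Depth was inferred from the spacing of low FPKM values and came to about 15400000 to 24400000 fragments per library. The summed FPKM of all genes were 218600 and 224200 in Combination, 289000 and 296500 in EPZ, 283200 and 276500 in ENZ, and 318600 and 314600 in DMSO, so the scale itself differed between groups. The prostate luminal markers KLK3, HOXB13, KRT8 and KRT18 were expressed in every library, with a lowest level of 69.2 FPKM for KRT8. Of the markers of other cell types, PECAM1, PTPRC and COL3A1 stayed at or below 0.234 FPKM, and the collagen gene COL1A1 had 2.24 to 10.5 FPKM. Changes were tested with limma on log2(FPKM + 1), a scale that understates the change of low genes, over the 11874 genes that averaged 1 FPKM or more. A gene was called where its Benjamini-Hochberg adjusted p-value was under 0.05. Bulk RNA cannot tell fewer cells that express a gene apart from less RNA per cell.

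The median base excision repair member stood at 9.09 FPKM in Combination, 14.8 FPKM in EPZ, 16.9 FPKM in ENZ and 20.9 FPKM in DMSO, above the other pathways in every group. The median of nucleotide excision repair was 5.37 FPKM in Combination, 6.64 FPKM in EPZ, 7.52 FPKM in ENZ and 6.53 FPKM in DMSO, and that of end joining was 5.32 FPKM in Combination, 6.58 FPKM in EPZ, 9.68 FPKM in ENZ and 8.92 FPKM in DMSO. Mismatch repair was lowest, with medians of 4.57 FPKM in Combination, 4.85 FPKM in EPZ, 6.70 FPKM in ENZ and 6.17 FPKM in DMSO. XRCC6 was the most abundant of the 38 in every group, and PARP1, APEX1 and XRCC5 also had DMSO means above 100 FPKM. Only 18 members averaged at least 10 FPKM over the 8 libraries, and 6 stayed below 5 FPKM in every library. ERCC5, the endonuclease XPG that cuts on the 3′ side of a bulky lesion, was the one member below 1 FPKM in every library, with 0.686 and 0.404 FPKM in Combination, 0.381 and 0.46 FPKM in EPZ, 0.635 and 0.472 FPKM in ENZ and 0.778 and 0.458 FPKM in DMSO. These values rest on 27 to 54 fragments per library and the 4 groups overlapped. ERCC5 fell under the expression filter, so 37 members were tested. Of its exonic bases 63.2% are shared with the read-through gene BIVM-ERCC5 in GENCODE release 29, which was listed at 0 in all 8 libraries. BIVM, on the same strand, shares 19.1% and had 1.89 to 2.32 FPKM. How reads in the shared bases were counted was not tested, so the level of ERCC5 is uncertain.

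**Figure D1:**
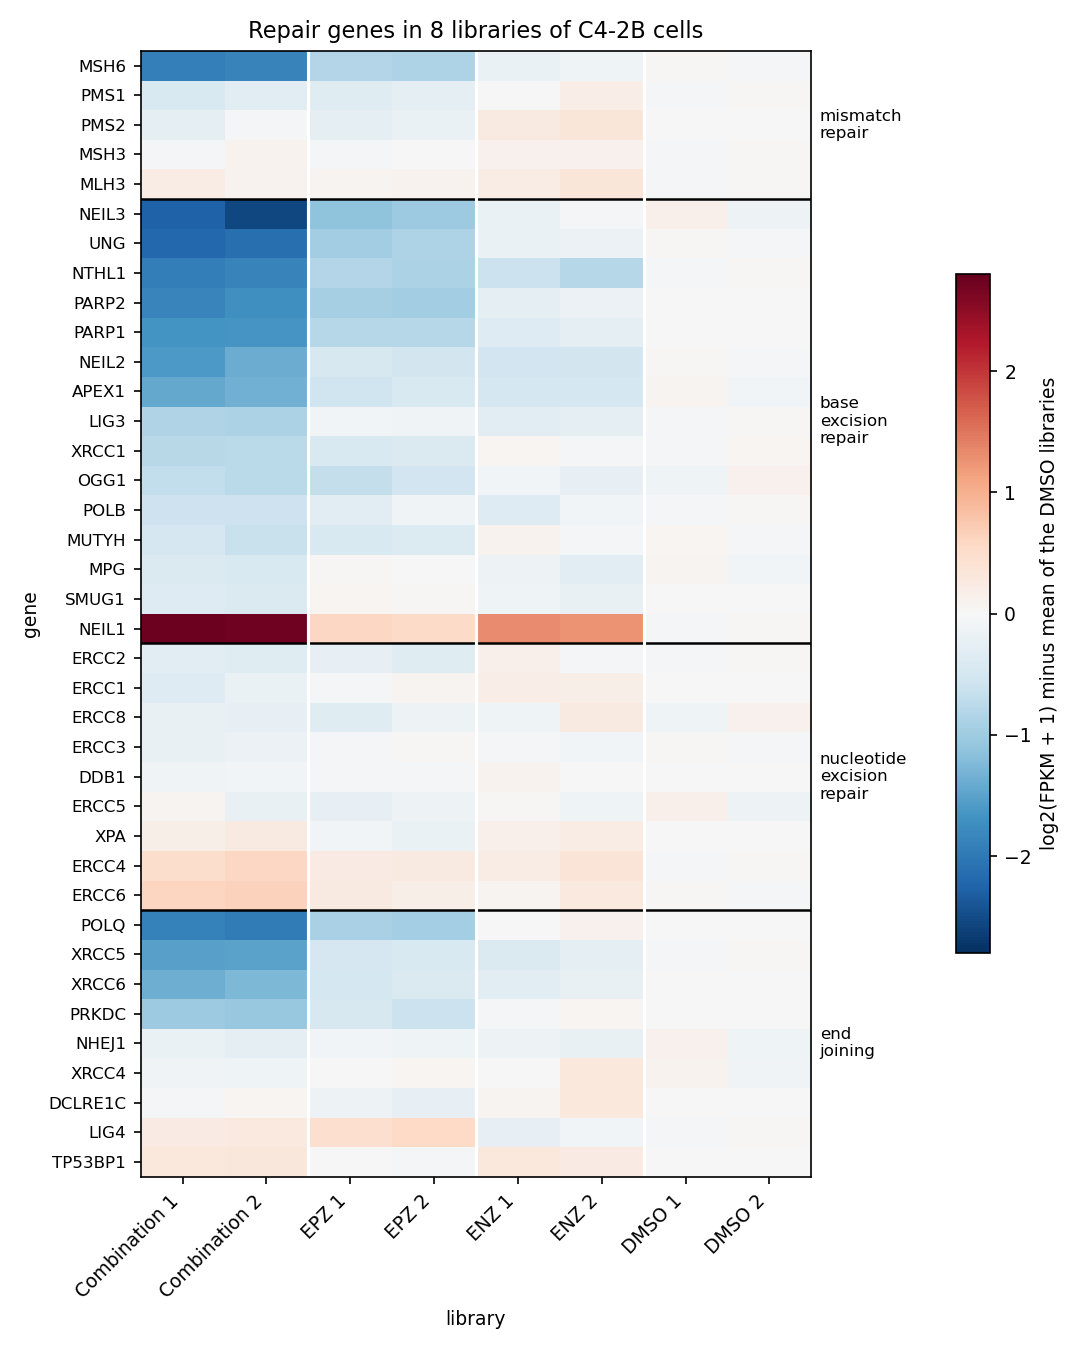
Heat map of each of the 38 repair genes (rows, grouped by pathway) in each of the 8 libraries (columns, Combination, EPZ, ENZ and DMSO from left to right), coloured by log2(FPKM + 1) minus the gene's mean over the DMSO libraries (blue lower, red higher). Base excision repair is blue in both Combination libraries except for NEIL1, and nucleotide excision repair stays pale.

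In Combination cells most repair genes were lower than in DMSO cells. Among the 37 tested members, 24 were lower and 6 higher in Combination, which is 81.1% called against a background of 80.8% of all genes called. The share called was therefore that of the whole transcriptome, and the members differed from it mainly in direction: 64.9% of members were lower, against 47.4% of all genes, and 16.2% were higher, against 33.3%. 12 members fell at least 2-fold on the log2(FPKM + 1) scale, or 32.4%, against 16% of all genes, and after quantile normalization 7 did. The median log2 change of the members was -0.38 and that of all tested genes -0.15. Median-of-ratios scaling moves that median of all genes to 0.0024. By sign alone, with no new test, the same 24 members lay below the all-gene median and the same 6 above it. ERCC3 (by 0.035, SE 0.0621) and NHEJ1 (by 0.075, SE 0.0893) lay below it by less than their SE. After quantile normalization MPG (0.14) and ERCC3 (0.031) changed sign. The libraries of the 2 groups did not overlap in 34 members, or 91.9%, against 90.9% of all genes.

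The single agents changed fewer members. With EPZ 18 members fell and 3 rose relative to DMSO, and 55.8% of all genes were called, with 32.4% lower and 23.4% higher. The median log2 change with EPZ was -0.23 in the members, against -0.046 in all genes. With ENZ 10 members fell and 5 rose, or 40.5% called against 56.7% of all genes, of which 28.8% were lower and 27.9% higher. The members' ENZ median of -0.0039 was close to the 0.0049 of all genes. After quantile normalization the ENZ calls were 6 lower and 5 higher. APEX1, NEIL2, NTHL1, PARP1, PARP2, UNG, XRCC5 and XRCC6 were lower in each of the 3 treatments, and ERCC4 and NEIL1 were higher in each. That is 21.6% and 5.41% of the tested members, against 17.4% and 12.7% of all genes. The comparisons with DMSO share the same DMSO libraries. DCLRE1C, DDB1, ERCC8, MSH3 and XRCC4, or 13.5%, were called in none of them, against 10.5% of all genes. Under every alternative setting tried, 23 of the 30 Combination calls, 17 of the 21 EPZ calls and 6 of the 15 ENZ calls held. The calls that were lost in some setting were MPG, ERCC1, ERCC2, ERCC3, XPA, LIG4 and NHEJ1 with Combination, PMS1, PMS2, ERCC2 and ERCC4 with EPZ, and MLH3, PMS2, UNG, MPG, PARP1, PARP2, ERCC4, XRCC5 and XRCC6 with ENZ.

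The pathways differed in how many members fell with Combination, a difference that was not tested. In base excision repair 14 of 15 members fell, or 93.3% against 47.4% of all genes, NEIL1 rose, and the median log2 change was -0.86. End joining had 5 of 9 members lower, or 55.6%, and 2 higher (median -0.22). Mismatch repair had 2 of 5 members lower, or 40%, and none higher (median -0.15), and nucleotide excision repair had 3 of its 8 tested members lower, or 37.5%, and 3 higher (median -0.14). The shares lower of the last 3 pathways lay near or below that of all genes, and their medians near the -0.15 of all genes. This holds for the listed members only. Among other genes of these pathways the shares lower were 62.5% in end joining, 93.8% in mismatch repair and 81.2% in nucleotide excision repair. The 12 members that fell at least 2-fold comprised 7 of base excision repair, 4 of end joining, 1 of mismatch repair and none of nucleotide excision repair. These are 46.7%, 44.4%, 20% and 0% of the tested members, against 16% of all genes. By that measure end joining stood beside base excision repair and not near all genes. With EPZ the lower members numbered 10 of 15 in base excision repair, 4 of 9 in end joining, 3 of 5 in mismatch repair and 1 of 8 in nucleotide excision repair, which are 66.7%, 44.4%, 60% and 12.5%, against 32.4% of all genes. With ENZ they numbered 8 of 15 in base excision repair, 2 of 9 in end joining, and 0 in mismatch and nucleotide excision repair. The ENZ shares of 53.3% in base excision repair and 22.2% in end joining stand against 28.8% of all genes.

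**Figure D2:**
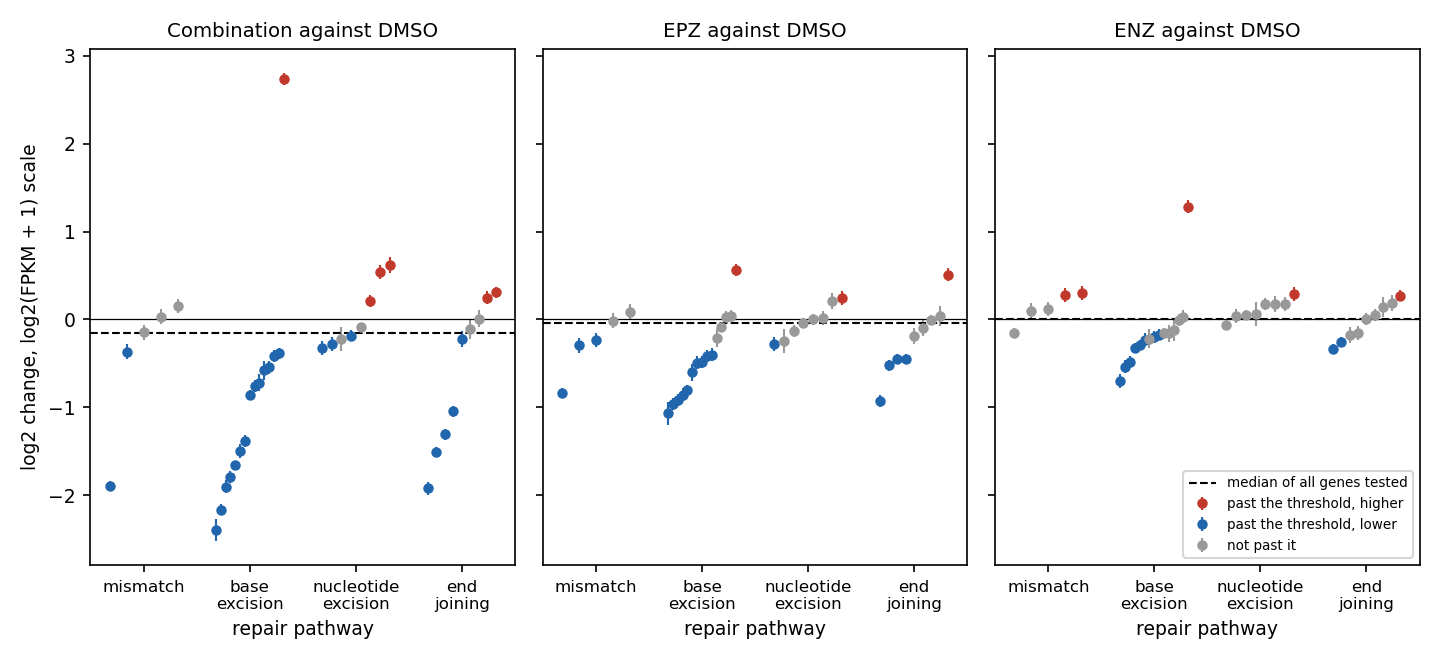
Log2 change on the log2(FPKM + 1) scale of each of the 37 tested repair genes against DMSO, by pathway, for Combination, EPZ and ENZ, with bars for the SE, blue and red points for genes past the adjusted p threshold, grey points for the others and a dashed line at the median of all tested genes. Base excision repair genes lie furthest below 0 with Combination, NEIL1 alone stands at 2.73, and the nucleotide excision repair genes stay between -0.32 and 0.62.

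In mismatch repair MSH6 was the member with the highest mean level and, with Combination and with EPZ, the one with the largest change. It had 8.65 and 8.95 FPKM in Combination, 19.7 and 19.1 FPKM in EPZ, 30.9 and 32.6 FPKM in ENZ and 36.4 and 34.4 FPKM in DMSO. MSH6 is the subunit of MutS alpha that recognises base mismatches and short loops. Combination was lowest, followed by EPZ, ENZ and DMSO, and the 4 groups did not overlap. MSH6 was 4.02-fold lower in Combination than in DMSO by group means (log2 change -1.89, SE 0.0604, adjusted p = 2.46e-09), and fell with EPZ (log2 change -0.84, SE 0.0604, adjusted p = 5.23e-06). With ENZ the log2 change of -0.15 did not pass (adjusted p = 0.0529).

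MSH3, which takes the place of MSH6 in MutS beta and binds larger loops, was the least abundant member and passed the test in no comparison. It had 2.78 and 3.19 FPKM in Combination, 2.81 and 2.88 FPKM in EPZ, 3.22 and 3.22 FPKM in ENZ and 2.77 and 3.0 FPKM in DMSO. These values overlapped between Combination and DMSO, and the log2 change was 0.03 with an SE of 0.0829 (adjusted p = 0.717). Within each library the MSH6 to MSH3 ratio of FPKM was 3.12 and 2.81 in Combination, 7.00 and 6.63 in EPZ, 9.58 and 10.1 in ENZ, and 13.2 and 11.4 in DMSO.

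With Combination and with EPZ the 3 MutL members had smaller changes than MSH6. PMS2, whose endonuclease activity makes the nick for excision in MutL alpha, had 6.8 and 7.99 FPKM in Combination, 6.63 and 7.17 FPKM in EPZ, 10.1 and 10.8 FPKM in ENZ and 8.32 and 8.22 FPKM in DMSO. It was the one member higher with ENZ (log2 change 0.30, SE 0.0819, adjusted p = 0.011) and lower with EPZ (log2 change -0.23, SE 0.0819, adjusted p = 0.0361). With Combination its log2 change of -0.15 did not pass (adjusted p = 0.125). PMS2 has near-identical pseudogene copies that can share its reads, so its level is uncertain. PMS1, a MutL homologue, was lower with Combination and with EPZ, at log2 changes of -0.37 and -0.29. MLH3, the MutL gamma subunit, was higher with ENZ at a log2 change of 0.28.

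Promoter windows ran from 250 bases before to 50 bases after each start and were taken from RefSeq (GRCh38.p14). Those of 33 members were used, with 51 windows in all. NEIL2, POLB and PRKDC were left out of the search by a setting, and SMUG1 and XRCC5 also had no window. Each of these genes was lower with Combination, and the shares of member windows do not cover them. Whether the set of all windows had the same exclusion is not given here. Windows were searched on both strands for letters bound by E2F factors, which drive genes of DNA replication (TTTCCCGC, TTTGGCGC, TTTCGCGC and TTTGCCGC), and for the letters TTTGAA of the cell-cycle homology region. E2F letters were in 6 member windows, or 11.8%, of MSH3, MSH6, PMS2, UNG and XRCC6, against 3.31% of all 35116 windows. The 2 windows of PMS2 overlap and hold the same match. MSH3 and PMS2 were not called with Combination, and the other 3 genes were lower. The TTTGAA letters were in 7 member windows, or 13.7%, of ERCC1, ERCC6, MUTYH, NEIL3, POLQ, UNG and XRCC1, against 15.2% of all windows. A match is a description of letters and not a bound site. The window of MSH6 (chr2:47782895-47783194, plus strand) is shown because it carries E2F letters, in capitals, at the start of the mismatch repair member that fell most. MSH6 has 4 windows in the table, and the other 3 hold neither set of letters.
MSH6: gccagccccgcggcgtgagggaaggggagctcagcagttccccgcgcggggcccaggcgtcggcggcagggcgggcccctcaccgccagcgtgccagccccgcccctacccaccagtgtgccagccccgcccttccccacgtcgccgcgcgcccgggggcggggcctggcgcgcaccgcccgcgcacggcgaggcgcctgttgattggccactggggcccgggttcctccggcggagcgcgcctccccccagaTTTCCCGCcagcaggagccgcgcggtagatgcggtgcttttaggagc

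All base excision glycosylases but NEIL1 were lower in Combination than in DMSO. UNG, which removes uracil from DNA, had 10.4 and 11.1 FPKM in Combination, 25.7 and 28.1 FPKM in EPZ, 45.3 and 45.8 FPKM in ENZ and 52.5 and 50.6 FPKM in DMSO. Its 4 groups did not overlap, and Combination was 4.81-fold below DMSO by group means (log2 change -2.16, SE 0.063, adjusted p = 1.37e-09). The change with EPZ was -0.92 and that with ENZ -0.18, the second of which changed sign after quantile normalization. SMUG1, the other main uracil glycosylase, had 9.37 and 9.09 FPKM in Combination, 12.8 and 12.7 FPKM in EPZ, 11.4 and 10.6 FPKM in ENZ and 12.4 and 12.3 FPKM in DMSO. SMUG1 fell by 0.38 on the log2 scale with Combination (adjusted p = 0.000237), and its changes with EPZ and ENZ did not pass. The UNG to SMUG1 ratio within a library was 1.11 and 1.22 in Combination, 2.01 and 2.21 in EPZ, 3.98 and 4.33 in ENZ and 4.24 and 4.11 in DMSO.

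The 3 NEIL glycosylases, which remove oxidised bases, moved in different directions. NEIL1 had 15.7 and 15.7 FPKM in Combination, 2.75 and 2.64 FPKM in EPZ, 5.25 and 4.95 FPKM in ENZ and 1.44 and 1.58 FPKM in DMSO. It was higher than DMSO in every treatment, 10.4-fold by group means in Combination (log2 change 2.73, SE 0.0716, adjusted p = 7.65e-10), with log2 changes of 0.56 with EPZ (adjusted p = 0.000157) and 1.28 with ENZ (adjusted p = 9.15e-07). Its DMSO values rest on 56 and 81 fragments and its Combination values on 766 and 648. NEIL1 lies at chr15:75346955-75357114 on the plus strand (hg38, GENCODE release 29), and 26.4% of its exonic bases, 1831 bases, overlap MAN2C1 on the opposite strand. Reads of the 2 genes cannot be told apart there, the strand setting of the counting being not given in the sources used here. MAN2C1, a mannosidase gene, had 29.9 and 28.2 FPKM in Combination, 20.8 and 19.6 FPKM in EPZ, 24.5 and 21.8 FPKM in ENZ and 18.6 and 17.5 FPKM in DMSO, and the NEIL1 to MAN2C1 ratio was 0.525 and 0.556 in Combination, 0.133 and 0.135 in EPZ, 0.215 and 0.227 in ENZ and 0.0772 and 0.0903 in DMSO. The share of 26.4% is of all 6938 annotated exonic bases, while a length of 2530 bases fitted the NEIL1 values. The part of MAN2C1 reads in the NEIL1 values was not tested.

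NEIL3, which acts on single-stranded DNA and crosslinks, ran the other way. It had 0.497 and 0.229 FPKM in Combination, 2.27 and 2.55 FPKM in EPZ, 5.29 and 5.85 FPKM in ENZ and 6.94 and 5.44 FPKM in DMSO. The 2 Combination libraries lay far below all others and hold 23 and 9 fragments of NEIL3, with exact Poisson 95% intervals of 0.315 to 0.745 and 0.105 to 0.435 FPKM that cover counting error only. NEIL3 had the lowest log2 change of all members with Combination (log2 change -2.40, SE 0.127, adjusted p = 6.4e-08) and with EPZ (log2 change -1.07, SE 0.127, adjusted p = 9.78e-05). With ENZ its log2 change was -0.12 and the groups overlapped (adjusted p = 0.429). NEIL2 had 8.3 and 9.89 FPKM in Combination, 19.7 and 18.8 FPKM in EPZ, 18.5 and 18.8 FPKM in ENZ and 28.1 and 26.7 FPKM in DMSO. It was lower with Combination (log2 change -1.50, SE 0.0786, adjusted p = 6.17e-08), and EPZ and ENZ libraries lay at similar levels between Combination and DMSO, with log2 changes of -0.49 and -0.54. The NEIL1 to NEIL3 ratio within a library was 31.6 and 68.4 in Combination, 1.21 and 1.03 in EPZ, 0.992 and 0.847 in ENZ and 0.207 and 0.290 in DMSO.

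**Figure D3:**
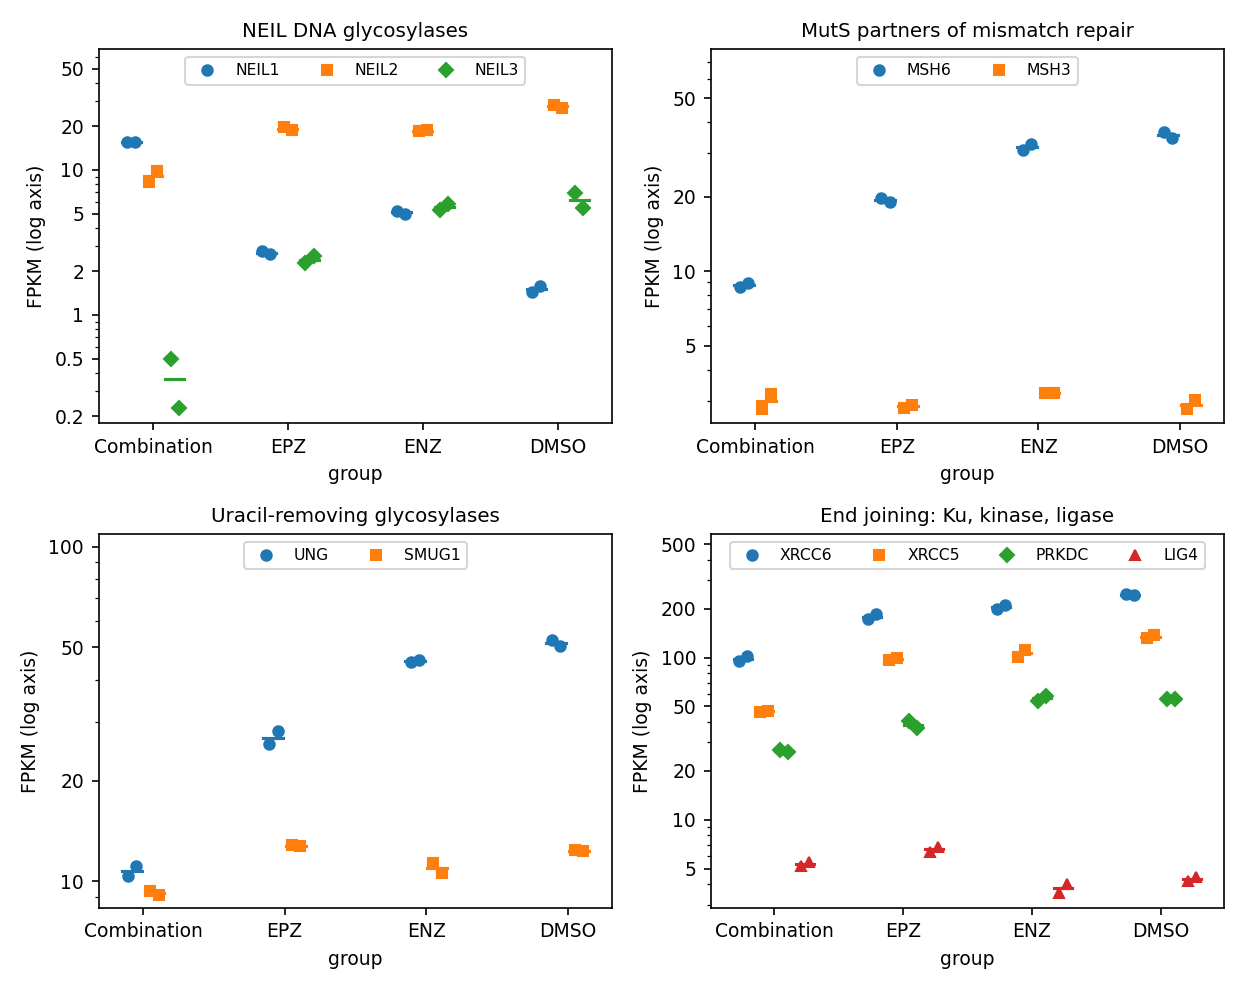
FPKM of related repair genes in each library on log axes (points, 2 per group, with a line at their mean), for the NEIL glycosylases, MSH6 with MSH3, UNG with SMUG1, and XRCC6, XRCC5, PRKDC and LIG4, with groups Combination, EPZ, ENZ and DMSO from left to right. NEIL1 reaches 15.7 FPKM in both Combination libraries where NEIL3 is at 0.497 and 0.229 FPKM, and MSH6 is lowest in Combination while MSH3 stays between 2.77 and 3.22 FPKM.

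The 4 remaining glycosylases were also lower with Combination. NTHL1, which removes oxidised pyrimidines, had 8.12 and 8.59 FPKM in Combination, 18.7 and 18.0 FPKM in EPZ, 22.1 and 19.1 FPKM in ENZ and 33.3 and 34.6 FPKM in DMSO. It fell 4.07-fold by group means in Combination (log2 change -1.90, SE 0.0749, adjusted p = 8.96e-09) and had the lowest log2 change of all members with ENZ (log2 change -0.70, SE 0.0749, adjusted p = 5.6e-05). OGG1, which removes 8-oxoguanine, MUTYH, which removes adenine paired with it, and MPG, which removes alkylated purines, had log2 changes of -0.72, -0.54 and -0.42 with Combination. The sign of MPG changed after quantile normalization. OGG1, MUTYH, NTHL1 and MPG share between 14.1% and 27.3% of their exonic bases with a neighbour on the opposite strand.

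A promoter window of UNG (chr12:109097922-109098221, plus strand) is shown because it carries E2F letters and TTTGAA letters together. The window of NEIL3 (chr4:177309624-177309923, plus strand) is shown for the TTTGAA letters near the start of the member that fell most. A window of NEIL1 (chr15:75346789-75347088, plus strand) is shown as the member that rose, and holds neither set of letters. UNG and NEIL1 have further windows, and those hold neither set of letters. Capitals mark the matches on either strand.
UNG: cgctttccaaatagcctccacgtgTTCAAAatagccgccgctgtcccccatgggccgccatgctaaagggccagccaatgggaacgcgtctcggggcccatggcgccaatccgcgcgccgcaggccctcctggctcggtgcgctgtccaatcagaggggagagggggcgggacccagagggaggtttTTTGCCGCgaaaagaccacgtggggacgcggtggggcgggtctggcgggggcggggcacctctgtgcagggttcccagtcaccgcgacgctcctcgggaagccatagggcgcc
NEIL3: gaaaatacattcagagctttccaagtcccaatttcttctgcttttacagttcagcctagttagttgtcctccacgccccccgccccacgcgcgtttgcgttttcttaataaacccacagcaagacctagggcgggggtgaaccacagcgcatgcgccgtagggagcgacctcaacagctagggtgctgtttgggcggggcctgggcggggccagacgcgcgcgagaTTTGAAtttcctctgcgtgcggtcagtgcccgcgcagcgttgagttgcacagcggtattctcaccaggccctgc
NEIL1: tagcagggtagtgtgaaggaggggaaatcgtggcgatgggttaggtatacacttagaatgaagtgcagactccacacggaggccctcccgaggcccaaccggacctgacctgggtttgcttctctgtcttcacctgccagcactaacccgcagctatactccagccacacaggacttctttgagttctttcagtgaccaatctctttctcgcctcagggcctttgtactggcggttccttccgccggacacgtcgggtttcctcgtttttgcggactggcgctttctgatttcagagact

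Downstream of the glycosylases APEX1, PARP1 and PARP2 fell at least 2-fold with Combination, and XRCC1, LIG3 and POLB fell less. APEX1, the main abasic site endonuclease, had 54.0 and 57.6 FPKM in Combination, 99.98 and 109.7 FPKM in EPZ, 104 and 105 FPKM in ENZ and 154 and 139.6 FPKM in DMSO. It fell by 1.38 on the log2 scale with Combination, 0.48 with EPZ and 0.49 with ENZ, and the EPZ and ENZ libraries overlapped. PARP1, which senses strand breaks and builds poly(ADP-ribose), had 47.0 and 47.9 FPKM in Combination, 87.4 and 86.1 FPKM in EPZ, 118 and 125 FPKM in ENZ and 152 and 151 FPKM in DMSO. PARP2, its less abundant relative, had 7.5 and 8.32 FPKM in Combination, 15.1 and 14.6 FPKM in EPZ, 24.9 and 26.6 FPKM in ENZ and 30.0 and 29.5 FPKM in DMSO. Both genes were lowest in Combination, followed by EPZ, ENZ and DMSO without overlap, and Combination was 3.19-fold below DMSO for PARP1 (log2 change -1.66, SE 0.0504, adjusted p = 1.84e-09) and 3.76-fold for PARP2 (log2 change -1.79, SE 0.0665, adjusted p = 6.28e-09). The PARP1 to PARP2 ratio stayed within 4.68 and 6.26 in all 8 libraries.

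XRCC1, the scaffold of single-strand break repair, had 5.03 and 5.15 FPKM in Combination, 6.61 and 6.8 FPKM in EPZ, 9.65 and 8.91 FPKM in ENZ and 8.98 and 9.64 FPKM in DMSO. It was lower with Combination (log2 change -0.76, SE 0.0694, adjusted p = 3.55e-06) and with EPZ at -0.42, and its ENZ libraries overlapped those of DMSO. LIG3, the ligase that XRCC1 binds, had 11.2 and 10.9 FPKM in Combination, 19.8 and 19.5 FPKM in EPZ, 16.5 and 17.2 FPKM in ENZ and 20.4 and 21.4 FPKM in DMSO. LIG3 was lower with Combination (log2 change -0.86, SE 0.0586, adjusted p = 3.92e-07) and with ENZ at -0.29, and its change of -0.08 with EPZ did not pass. POLB, the gap-filling polymerase, had 8.51 to 13.6 FPKM over all libraries and a log2 change of -0.58 with Combination. The LIG3 exons overlap those of RFFL on the opposite strand over 29.1% of their length.

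In nucleotide excision repair no tested member changed 2-fold with Combination. Of the 8 members 37.5% were lower and 37.5% higher, 75% called in all, against 47.4%, 33.3% and 80.8% of all genes, so the share called and its split lay near the background. DDB1, the damage-binding subunit shared with CUL4 ubiquitin ligases, was the most abundant, with 44.2 and 44.8 FPKM in Combination, 45.7 and 46.6 FPKM in EPZ, 50.6 and 47.7 FPKM in ENZ and 46.9 and 47.9 FPKM in DMSO. Its groups lay within a narrow band and no comparison with DMSO passed, with a log2 change of -0.09 with Combination (adjusted p = 0.146). ERCC6, also called CSB, which starts repair where RNA polymerase is stalled, had 3.77 and 3.92 FPKM in Combination, 2.75 and 2.54 FPKM in EPZ, 2.31 and 2.84 FPKM in ENZ and 2.23 and 2.07 FPKM in DMSO. ERCC6 was higher in Combination than in every other library (log2 change 0.62, SE 0.0928, adjusted p = 0.000139). ERCC8, also called CSA, which acts with it, had 1.80 to 3.24 FPKM over all libraries and passed in no comparison.

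ERCC4 and ERCC1 form the endonuclease that cuts on the 5′ side of the lesion, and with Combination ERCC4 was higher and ERCC1 lower than in DMSO. ERCC4 had 5.17 and 5.58 FPKM in Combination, 4.1 and 4.23 FPKM in EPZ, 4.08 and 4.59 FPKM in ENZ and 3.24 and 3.5 FPKM in DMSO. It was higher with Combination (log2 change 0.54, SE 0.0803, adjusted p = 0.000125), with EPZ (log2 change 0.24, SE 0.0803, adjusted p = 0.028) and with ENZ (log2 change 0.29, SE 0.0803, adjusted p = 0.0126). Of its exonic bases 25.7% overlap an antisense gene, AC010401.1, whose part in the ERCC4 values was not tested. ERCC1 had 4.84 and 5.62 FPKM in Combination, 6.33 and 6.95 FPKM in EPZ, 7.59 and 7.45 FPKM in ENZ and 6.58 and 6.47 FPKM in DMSO. It was lower with Combination (log2 change -0.28, SE 0.0799, adjusted p = 0.00931) and passed with neither single agent. The ERCC4 to ERCC1 ratio within a library was 1.07 and 0.992 in Combination, 0.648 and 0.608 in EPZ, 0.537 and 0.617 in ENZ and 0.493 and 0.540 in DMSO. XPA, the damage verification factor, had 8.66 and 9.31 FPKM in Combination, 7.21 and 6.61 FPKM in EPZ, 8.49 and 9.01 FPKM in ENZ and 7.63 and 7.65 FPKM in DMSO. Its log2 change with Combination was 0.21 (adjusted p = 0.0201). The helicase subunits of TFIIH, ERCC2 and ERCC3, had log2 changes of -0.32 and -0.18 with Combination, and that of ERCC3 changed sign after quantile normalization.

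In end joining the 3 genes of DNA-PK and POLQ fell at least 2-fold with Combination, while LIG4 and TP53BP1 rose. XRCC6, the Ku70 subunit that binds broken ends, had 94.8 and 102 FPKM in Combination, 173 and 184 FPKM in EPZ, 200.1 and 210.3 FPKM in ENZ and 246 and 244 FPKM in DMSO. XRCC5, its Ku80 partner, had 46.3 and 46.9 FPKM in Combination, 96.9 and 99.7 FPKM in EPZ, 101 and 111 FPKM in ENZ and 131 and 138 FPKM in DMSO. Both were lowest in Combination and highest in DMSO, with log2 changes of -1.31 and -1.51 with Combination (adjusted p = 1.9e-08 and 8.5e-09). Their ratio stayed within 1.77 and 2.17 in all 8 libraries. Both had smaller changes with ENZ, at -0.25 and -0.34, and that of XRCC6 changed sign after quantile normalization. PRKDC, the catalytic subunit of DNA-PK, had 26.9 and 26.2 FPKM in Combination, 40.5 and 36.6 FPKM in EPZ, 53.8 and 58.1 FPKM in ENZ and 55.6 and 55.9 FPKM in DMSO. PRKDC fell with Combination (log2 change -1.04, SE 0.065, adjusted p = 2.07e-07) and EPZ (log2 change -0.52, SE 0.065, adjusted p = 0.000133), whereas its ENZ libraries overlapped those of DMSO (log2 change 0.01, adjusted p = 0.953).

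LIG4, the ligase of non-homologous end joining, had 5.19 and 5.46 FPKM in Combination, 6.37 and 6.8 FPKM in EPZ, 3.54 and 4.02 FPKM in ENZ and 4.2 and 4.45 FPKM in DMSO. It was higher with EPZ (log2 change 0.51, SE 0.0786, adjusted p = 0.000487) and with Combination (log2 change 0.25, SE 0.0786, adjusted p = 0.0143). With ENZ its log2 change of -0.16 did not pass (adjusted p = 0.117). XRCC4, the partner of LIG4, and DCLRE1C, the nuclease Artemis, were among the lowest members and passed in none of the 6 comparisons. DCLRE1C, the lowest end-joining gene by overall mean, had 2.39 and 2.58 FPKM in Combination, 2.12 and 1.97 FPKM in EPZ, 2.66 and 3.27 FPKM in ENZ and 2.42 and 2.51 FPKM in DMSO. Its groups overlapped between Combination and DMSO (log2 change 0.01, adjusted p = 0.944). NHEJ1, also called XLF, was lower with Combination at -0.22, and had 4.24 to 5.83 FPKM over all libraries. Of its exonic bases 65.4% are shared with AC068946.1, a protein-coding gene annotated on the same strand, the largest share of any member. Reads of the 2 genes cannot be told apart there, so the level of NHEJ1 is uncertain. The share is of all 3109 annotated exonic bases, while a length of 2103 bases fitted the NHEJ1 values. AC068946.1 had no complete row under that symbol among the deposited values.

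POLQ, the polymerase of microhomology-mediated joining, had 1.77 and 1.66 FPKM in Combination, 4.5 and 4.32 FPKM in EPZ, 9.25 and 10.1 FPKM in ENZ and 9.24 and 9.34 FPKM in DMSO. It was 5.41-fold lower in Combination than in DMSO by group means (log2 change -1.92, SE 0.0717, adjusted p = 6.41e-09) and fell with EPZ (log2 change -0.93, SE 0.0717, adjusted p = 7.34e-06). ENZ and DMSO libraries overlapped, with a log2 change of 0.05 (adjusted p = 0.551). The POLQ to LIG4 ratio within a library was 0.341 and 0.305 in Combination, 0.707 and 0.636 in EPZ, 2.61 and 2.51 in ENZ and 2.20 and 2.10 in DMSO. TP53BP1, which shields broken ends from resection, had 11.2 and 11.4 FPKM in Combination, 9.06 and 8.7 FPKM in EPZ, 11.3 and 10.7 FPKM in ENZ and 9.01 and 8.84 FPKM in DMSO. It was higher with Combination (log2 change 0.31, SE 0.0616, adjusted p = 0.000978) and with ENZ (log2 change 0.27, SE 0.0616, adjusted p = 0.00435), and not with EPZ (log2 change -0.01, adjusted p = 0.936). Of its exonic bases 28.7% overlap TUBGCP4 on the opposite strand. The promoter window of POLQ (chr3:121545939-121546238, minus strand) is shown because it holds the TTTGAA letters at 2 places, in capitals, 1 of them at the start.
POLQ: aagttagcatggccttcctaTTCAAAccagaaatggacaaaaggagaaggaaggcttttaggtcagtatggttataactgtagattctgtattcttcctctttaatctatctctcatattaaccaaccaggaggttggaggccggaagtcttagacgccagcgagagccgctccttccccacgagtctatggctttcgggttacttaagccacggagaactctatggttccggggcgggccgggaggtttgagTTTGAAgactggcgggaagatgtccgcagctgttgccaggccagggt

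To see what EPZ6438 changed on top of ENZ, Combination was set against ENZ, where 24 of 37 members were lower and 4 higher, against 45.5% of all genes lower and 25.3% higher (70.8% called). The lowest log2 changes of Combination against ENZ were those of NEIL3 (log2 change -2.27, SE 0.127, adjusted p = 2.18e-07), UNG (-1.99) and POLQ (-1.97), and the highest those of NEIL1 (log2 change 1.45, SE 0.0716, adjusted p = 9.97e-08), ERCC6 (0.44) and LIG4 (0.41). By sign alone, 23 of the 24 lay below the median of all genes, -0.15, and after quantile normalization the split was 22 lower and 8 higher. Among all genes the share of higher calls moved to 51.2% with median-of-ratios scaling, against 35.7% as deposited. MPG and DDB1 changed sign under both scalings.

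For ENZ on top of EPZ6438, Combination was set against EPZ, where 20 members were lower and 5 higher, against 43.7% of all genes lower and 29.2% higher (72.8% called). NEIL3 (log2 change -1.33, SE 0.127, adjusted p = 7.57e-06), UNG (-1.25) and XRCC5 (-1.06) had the lowest log2 changes of Combination against EPZ, and NEIL1 (log2 change 2.17, SE 0.0716, adjusted p = 7.82e-09), ERCC6 (0.41) and XPA (0.34) the highest. The median of all genes in this comparison was -0.11, and all 20 lower members lay below it. LIG4 was lower in Combination than in EPZ (log2 change -0.26, adjusted p = 0.0129) and higher in Combination than in ENZ. In total 18 members were lower in Combination than in DMSO, ENZ and EPZ each, and ERCC4, ERCC6 and NEIL1 were higher than in each. These are 48.6% and 8.11% of the tested members, against 34.2% of all genes lower in all 3 comparisons and 18.5% higher.

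The change in Combination differed from the sum of the single-agent changes for 17 members, by the interaction term of the same fit. Of these 16 were lower than the sum and NEIL1 was higher, against 29.6% of all genes lower and 9.99% higher (39.6% called). The labels give no doses for Combination, so the comparison with the sum assumes the doses of the single agents. For NEIL3 the ENZ and EPZ changes summed to -1.19 and the Combination change was -2.40, leaving an interaction of -1.21 (adjusted p = 0.000654). UNG (-1.07), POLQ (-1.05), MSH6 (-0.90) and XRCC5 (-0.72) followed. For NEIL1 the sum was 1.84 and the Combination change 2.73, an interaction of 0.89 (adjusted p = 0.000138). By pathway the interaction was lower in 10 of 15 base excision repair genes, 4 of 9 end-joining genes, 1 of 5 mismatch repair genes and 1 of 8 nucleotide excision repair genes. The median interaction of all genes was -0.12 as deposited and 0.0033 after median-of-ratios scaling, and all 16 members lay below that deposited median. The share of higher calls among all genes moved to 49.3% after quantile normalization, against 25.2%, and the members' split then was 14 lower and 3 higher.

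**Figure D4:**
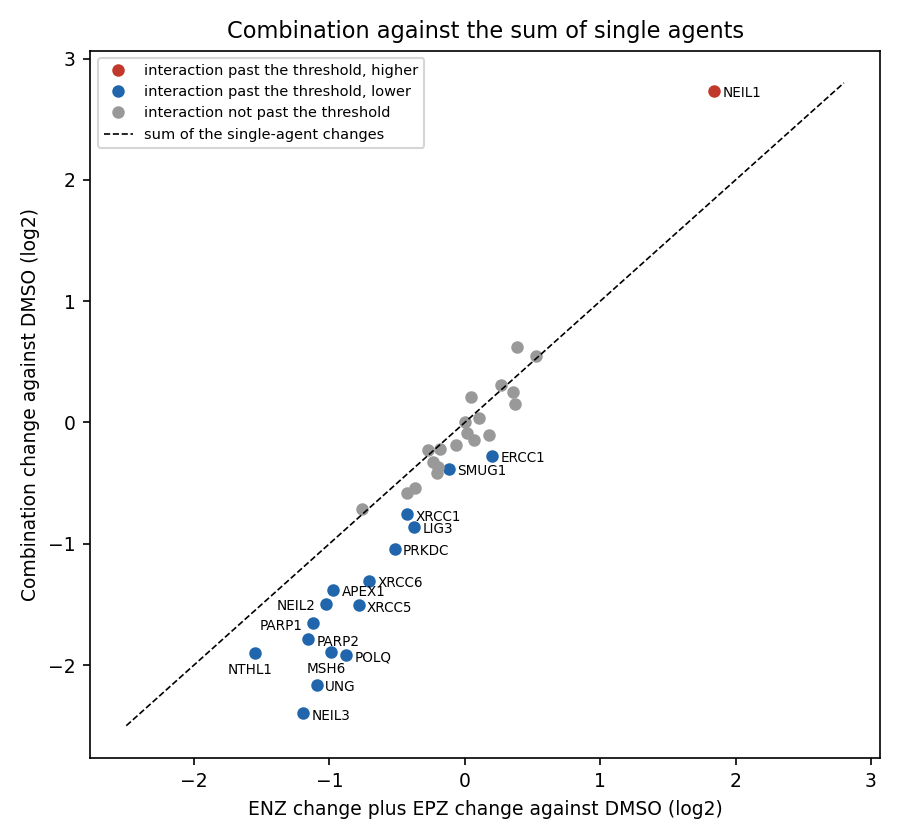
Log2 change of Combination against DMSO (y axis) against the sum of the ENZ and EPZ log2 changes (x axis) for the 37 tested repair genes, with the dashed line where both are equal and coloured points for genes whose interaction passed the threshold. NEIL3, UNG, POLQ and MSH6 lie furthest below the line and NEIL1 lies above it.

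Genes that act in the same pathways but are not among the 38 were more often lower than higher with Combination, as were all genes, of which 47.4% were lower and 33.3% higher. Of 16 other mismatch repair genes 15 fell, or 93.8%, and 1 rose in Combination relative to DMSO (median log2 change -1.70). Most of these 16 are replication factors shared with the pathway, and none is a MutS or MutL gene. PCNA also stands among the proliferation markers. The exonuclease EXO1 had a log2 change of -3.21, the sliding clamp PCNA -2.75 and the clamp loader subunit RFC3 -2.55, while the polymerase delta subunit POLD4 was higher at 0.63. Of 11 other base excision repair genes 9 fell, or 81.8%, and 2 rose (median -1.25). The flap endonuclease FEN1 had a log2 change of -3.16 and the gap-filling polymerase POLL 0.83. Of 16 tested nucleotide excision repair genes 13 fell, or 81.2%, and 3 rose (median -0.43), among the higher ones the damage sensor XPC at 0.41. Of 8 tested end-joining genes 5 fell, or 62.5%, and 3 rose, or 37.5%, a split nearer to that of all genes (median -0.72), with log2 changes from -3.45 for the histone gene H2AFX to 0.83 for POLL. With EPZ the counts were 15 lower and 1 higher in mismatch repair, 8 and 1 in base excision repair, 9 and 2 in nucleotide excision repair, and 5 and 2 in end joining, against 32.4% of all genes lower and 23.4% higher. With ENZ they were 6 lower and 0 higher in mismatch repair, 5 and 2 in base excision repair, 5 and 3 in nucleotide excision repair, and 2 and 2 in end joining. Of all genes 28.8% were lower and 27.9% higher with ENZ, and the shares lower of 31.2% in nucleotide excision repair and 25% in end joining lay near that. Some genes stand in more than 1 of these lists.

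Proliferation markers were also lower than in DMSO, all of them with Combination and with EPZ and most of them with ENZ. All 15 markers fell in Combination relative to DMSO (median log2 change -3.13), all 15 fell with EPZ (median -1.19), and 10 of 15 fell with ENZ (median -0.26). Their summed FPKM were 114 and 108 in Combination, 462 and 475 in EPZ, 858 and 882 in ENZ and 1089 and 1080 in DMSO. The proliferation antigen MKI67 had 2.62 and 2.22 FPKM in Combination, 18.9 and 17.2 FPKM in EPZ, 36.0 and 38.6 FPKM in ENZ and 32.5 and 33.7 FPKM in DMSO. The 4 members known for cell-cycle regulated mRNA, MSH6, UNG, NEIL3 and POLQ, had a median log2 change of -2.04 with Combination. Among the 33 other tested members, which were not checked for cell-cycle regulation, 20 fell and 6 rose (median -0.32). That is 60.6% lower and 18.2% higher, against 47.4% and 33.3% of all genes, and 78.8% called against 80.8%. The part of proliferation in the changes of the repair genes was not tested.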

How the data were processed

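C4-2B cells in 4 groups of 2 libraries were compared. The authors deposited FPKM values per gene and library, and no counts were used. STAR and genome build hg38 are named per the submitters' processing notes, while the counting tool, annotation, strand setting and tool versions were not given in the sources used here. Columns were matched to samples by their short names in the labels, and 0 columns were left unmatched. Values were transformed to log2(FPKM + 1), and 11874 of 26443 rows with values passed a mean of 1 FPKM. In limma 3.58.1 (R 4.3.3), 1 linear model covered the 4 groups (moderated two-sided test with a trend, 4 residual and 5.47 prior degrees of freedom), with Benjamini-Hochberg adjustment over all tested genes in each of 6 comparisons and a threshold of 0.05. The fit was tested on simulated data. Depth and whole fragments per gene were inferred from the steps of the FPKM (each of the 38 repair genes gave fragments within 0.02 of a whole number in all 8 libraries), so fragment numbers are estimates. Exon overlaps came from GENCODE release 29 and promoter windows from RefSeq. Python 3.11.15 with pandas 2.3.3, numpy 2.4.6, scipy 1.17.1 and matplotlib 3.10.9 was used for the rest.

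Genes given with full values were, per comparison, the 3 highest and 3 lowest called changes whose libraries do not overlap, the most and least abundant member of each pathway, members under the filter, and members called in the interaction. The members, lists and rule were chosen with earlier results of these data known. Alternatives were quantile normalization, median-of-ratios scaling, a stricter filter (mean of 5 FPKM), no filter, a pseudocount of 0.1, a fit of the compared groups only, a block for the replicate number, and leaving out single libraries. A few marker and neighbouring genes are not reported here.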

Additional observations from a re-analysis of the deposited data

Results flagged for a closer look

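For 17 repair genes the change that EPZ6438 made in the presence of ENZ (Combination minus ENZ) differed from the change it made alone (EPZ minus DMSO), by the interaction term of the limma fit with a Benjamini-Hochberg adjusted p under 0.05. That is 45.9% of the tested members, against 39.6% of all genes. The lower ones made up 43.2% of members, against 29.6% of all genes. The doses in Combination are not given in the labels, and the term assumes those of the single agents. In base excision repair the difference on the log2(FPKM + 1) scale was -1.21 for NEIL3, -1.07 for UNG, -0.63 for PARP2, -0.54 for PARP1, -0.49 for LIG3, -0.47 for NEIL2, -0.41 for APEX1, -0.35 for NTHL1, -0.33 for XRCC1 and -0.27 for SMUG1. NEIL1 was the one gene with a positive difference, 0.89. In end joining it was -1.05 for POLQ, -0.72 for XRCC5, -0.60 for XRCC6 and -0.53 for PRKDC. MSH6 had -0.90 in mismatch repair and ERCC1 -0.48 in nucleotide excision repair. The median over all tested genes was -0.12. The calls of NTHL1, NEIL2, APEX1, SMUG1 and XRCC1 did not hold under every alternative.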

How the results depend on the processing

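The number of repair genes called stayed within 1.5 times the value given in every comparison and alternative: 10 to 18 for ENZ, 17 to 23 for EPZ, 26 to 31 for Combination against DMSO, 24 to 30 against ENZ, 21 to 26 against EPZ, and 14 to 18 for the interaction. Leaving out each library in turn gave 10 (without the first DMSO library) to 18 (without the first ENZ library) for ENZ. With the replicate number as a block 17 genes were called for ENZ, 21 for EPZ, 30 for Combination against DMSO, 29 against ENZ, 25 against EPZ and 17 for the interaction. Same-numbered libraries correlated at -0.0153 to 0.109 in their deviations from the group means, so the numbers were not taken as pairs. Of 136 called changes 98 held under every alternative. Over 2008 alternative values 129 lost the call and 8 had the opposite sign, and the cause was not tested. After quantile normalization these were UNG (0.017) and XRCC6 (0.036) with ENZ, MPG (0.14) and ERCC3 (0.031) for Combination against DMSO, and MPG (0.20) and DDB1 (0.27, then called higher) for Combination against ENZ. After median-of-ratios scaling they were MPG (0.0005271) and DDB1 (0.047) for Combination against ENZ. Low fragment numbers limit NEIL3 in Combination (23 and 9 fragments), ERCC5 (27 to 54) and NEIL1 in DMSO (56 and 81). The level of ERCC5 is also uncertain because of the exons it shares with other genes.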

Other observations

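Among the 38 genes, 22 overlap exons of another annotated gene, and 13 share at least 10% of their exonic bases. Some of these neighbours on the opposite strand had values that ran like those of the repair gene and some did not, and no change of a neighbour was tested here. The part of shared reads in the values of either gene was not tested.

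Several neighbours had lower values in Combination than in DMSO, as the repair gene had. TOE1, which shares 552 exonic bases with MUTYH, had 4.42 and 4.93 FPKM in Combination, 7.24 and 7.13 FPKM in EPZ, 11.5 and 10.7 FPKM in ENZ and 12.3 and 12.6 FPKM in DMSO. NPRL3, which shares 453 bases with MPG, had 18.7 and 19.6 FPKM in Combination, 28.2 and 26.6 FPKM in EPZ, 26.7 and 24.9 FPKM in ENZ and 32.6 and 34.8 FPKM in DMSO. CD3EAP shares 1593 bases with ERCC1. It had 0.504 and 0.724 FPKM in Combination, 1.13 and 1.496 FPKM in EPZ, 1.54 and 1.44 FPKM in ENZ and 2.46 and 3.19 FPKM in DMSO. These 3 were lowest in Combination and highest in DMSO. CAMK1, which shares 2180 bases with OGG1, had 12.1 and 9.87 FPKM in Combination, 9.88 and 10.2 FPKM in EPZ, 13.9 and 12.9 FPKM in ENZ and 15.0 and 13.7 FPKM in DMSO. Both of its Combination libraries lay below both DMSO libraries.

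Other neighbours ran differently. The values of FBXO11, which shares 1785 bases with MSH6, were 12.2 and 13.1 FPKM in Combination, 12.1 and 11.8 FPKM in EPZ, 12.3 and 13.1 FPKM in ENZ and 12.6 and 12.2 FPKM in DMSO, and the Combination and DMSO libraries overlapped. NTHL1 shares 402 bases with TSC2, a regulator of mTOR, which had 35.2 and 34.1 FPKM in Combination, 25.7 and 24.1 FPKM in EPZ, 25.6 and 21.2 FPKM in ENZ and 22.7 and 22.2 FPKM in DMSO. RFFL, which shares 3754 bases with LIG3, had 1.64 and 1.59 FPKM in Combination, 1.17 and 1.06 FPKM in EPZ, 1.65 and 1.51 FPKM in ENZ and 1.25 and 1.45 FPKM in DMSO. TSC2 and RFFL were higher in both Combination libraries than in either DMSO library. TUBGCP4, a gamma-tubulin complex gene that shares 3732 bases with TP53BP1, had 4.27 and 4.08 FPKM in Combination, 5.28 and 5.10 FPKM in EPZ, 6.85 and 7.38 FPKM in ENZ and 8.79 and 8.55 FPKM in DMSO, where TP53BP1 had its lowest levels in DMSO and EPZ. DCLRE1C, which passed in no comparison, shares 159 bases with SUV39H2, a histone H3 methyltransferase gene. SUV39H2 had 3.15 and 3.68 FPKM in Combination, 6.45 and 6.70 FPKM in EPZ, 9.24 and 10.9 FPKM in ENZ and 10.6 and 10.6 FPKM in DMSO.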
